A study of Mus musculus with 28 samples.

Results

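Promoter contacts between different chromosomes were taken from the Promoter Capture Hi-C (PCHi-C) lists of C10 cells as unordered pairs of HindIII fragments whose members lie on different chromosomes (trans pairs). The union of the 4 lists held 1528 trans pairs of 273644 pairs in all, or 0.558%. They joined 1852 fragments, of which 799 were baits (promoter fragments captured by the oligonucleotides, taken here as any fragment that opens a row of a list) and 1053 were not. C10 is a mouse Pre-B cell line derived from HAFTL cells, which as background are fetal liver cells of the B lineage transformed with a Harvey ras retrovirus. All groups carry a transgene for rat C/EBPα fused to the hormone-binding domain of the estrogen receptor (C/EBPαER). The 0h cells were uninduced, and cells at 1h, 12h and 48h had received 100 nM β-estradiol, 10 nM IL-3 and CSF-1, which turn this line into macrophages. The authors merged 2 PCHi-C replicates per time point into 1 list, so contacts have no replicate error and no difference between lists was tested. RNA-seq had 3 libraries per time point. The 10 Pre-B cell markers summed to between 301.2 and 340.47 TPM (transcripts scaled to the same total in each library) at 0h and to between 29.92 and 41.9 TPM at 48h, whereas the 10 macrophage markers went from between 3.68 and 4.94 TPM to between 729.09 and 855.63 TPM.

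Chromosomes occupy separate territories in the nucleus, and most contacts that Hi-C captures join loci on the same chromosome. A contact between chromosomes is read against a background that does not depend on linear distance, so a few read pairs can score highly in CHiCAGO, the program the authors used to call interactions at a score of at least 5. Contacts between intact chromosomes and segments joined by a rearrangement of a cell line's genome cannot be told apart in such lists.

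The fragments of the 3 highest-scoring, non-overlapping pairs of regions in all 4 lists are shown by the reference sequence around the HindIII site that opens them (mm10, plus strand, RefSeq assembly GRCm38.p6), because the assay ligates HindIII ends. Either end of a fragment can be ligated, and the lists do not say which end was. The capitals mark the HindIII site AAGCTT that opens the fragment. The chromosome 8 window holds another such site upstream, left in small letters.
Kcnab3 bait, chr11:69329153-69329232: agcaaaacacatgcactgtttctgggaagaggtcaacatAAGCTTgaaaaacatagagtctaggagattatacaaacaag
its chromosome 8 partner, chr8:93383024-93383103: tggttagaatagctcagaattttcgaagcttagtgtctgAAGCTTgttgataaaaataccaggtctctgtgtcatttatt
chromosome 16 bait, chr16:71018066-71018145: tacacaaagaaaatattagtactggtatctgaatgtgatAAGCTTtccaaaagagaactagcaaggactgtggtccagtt
its chromosome 2 partner, chr2:9260617-9260696: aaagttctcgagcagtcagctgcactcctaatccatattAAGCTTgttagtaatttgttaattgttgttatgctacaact
Esp8 bait, chr17:40516671-40516750: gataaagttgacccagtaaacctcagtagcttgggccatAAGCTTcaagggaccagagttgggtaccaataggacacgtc
its chromosome 7 partner, chr7:40030378-40030457: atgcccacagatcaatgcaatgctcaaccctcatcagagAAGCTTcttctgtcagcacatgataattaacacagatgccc
All 1852 trans fragments opened with the bases that HindIII leaves in this assembly.

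Fewer trans pairs were listed late than early. The 0h, 1h, 12h and 48h lists held 880, 855, 679 and 618 of them, among 138769, 137836, 131598 and 144072 pairs in all. This was not particular to trans pairs. Pairs on the same chromosome more than 1 Mb apart were also fewer late, with 2821, 2320, 1192 and 1720 in these lists. Trans pairs thus made up 0.634% of the 0h list (95% Wilson interval 0.594 to 0.677) and 0.620% of the 1h list (0.580 to 0.663). The 12h list had 0.516% (0.479 to 0.556) and the 48h list 0.429% (0.397 to 0.464). These intervals cover counting error alone and treat pairs as independent, which neighbouring pairs are not. The number of baits with a trans pair went from 481 at 0h to 352 at 48h. In the union, 799 of 18175 baits (4.40%) had a trans pair, and 38 trans pairs (2.49%) joined 2 baits, against 14.8% of the pairs on the same chromosome.

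Trans pairs touched every chromosome of the lists but were concentrated on a few. Of 210 possible chromosome pairs 176 held at least 1 trans pair and 39 held 10 or more. Chromosomes 7 and 17 shared 215 pairs, chromosomes 8 and 11 shared 123, chromosomes 4 and 18 shared 66 and chromosomes 4 and 10 shared 61. Each of these counts came almost wholly from a single pair of regions, which held 207, 117, 65 and 58 pairs. Chromosome 7 was therefore touched by 361 trans pairs, but by 154 without these 4 region pairs, and chromosome 17 by 284 and 77. By share of baits with a trans pair, chromosome 4 was highest with 99 of 1134 baits (8.73%), followed by chromosome 1 with 79 of 1077 (7.34%). Of these 99 baits 32 lie in the single region pair with chromosome 18, and the lead of chromosome 4 rests on them. X was lowest among chromosomes with any, with 13 of 565 (2.30%). None of the 6 baits on Y had a trans pair, although 5 trans pairs had their other fragment there.

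A small number of fragments carried most trans pairs. Of the 1852 fragments 1491 had 1 trans partner and 60 had 5 or more, and these 60 took part in 819 of the 1528 pairs. The bait with the most was chr17:40516711-40520881, which holds the start of Esp8, a member of the exocrine gland-secreted peptide family. It had 209 trans partners, all on chromosome 7, and 8 partners on its own chromosome. The bait chr11:69329193-69341496, with the starts of Kcnab3 (a potassium channel beta subunit), Kcnab3os and Rnf227, had 112, all on chromosome 8. The bait chr4:44976324-44991510, with Grhpr (glyoxylate and hydroxypyruvate reductase) and Gm12679, had 55, all on chromosome 10. The fourth was chr18:35590442-35593391, no bait, which lies wholly in exons of Matr3 (a nuclear matrix protein) and had 32 partners on chromosome 4.

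RNA of the genes on these baits other than Grhpr was near 0 or not seen. Esp8 and Gm12679 were listed at 0 in all 12 libraries, and Kcnab3 lay between 0 and 0.09 TPM. Grhpr was at 1.23, 1.58 and 2.03 TPM in the 0h libraries and at 0.1, 0.52 and 0.58 TPM at 48h, without overlap (log2 fold change -1.94 ± 0.41 SE on log2(TPM + 0.1), limma adjusted p = 0.00238). A pseudocount of 1 ended this call.

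The bait chr11:3191408-3199767 differed from these in its spread over chromosomes. It holds the starts of Sfi1 (a centrin-binding protein of the spindle), Gm12735 and Fau-ps2 and had 21 trans partners on 12 chromosomes, the most of any fragment. Of its 21 pairs 18 were listed at 1 time point and none at all 4. No other fragment reached more than 5 partner chromosomes. Sfi1 was at 1.67, 1.09 and 1.53 TPM at 0h and at 3.27, 3 and 3.37 TPM at 1h (log2 fold change 1.13 ± 0.29 SE, limma adjusted p = 0.0169). The call was lost with median-of-ratios scaling (0.50), with a pseudocount of 1 (0.80), without the filter on low values and when 0h replicate 2 or 1h replicate 1 was left out.

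Trans pairs formed blocks. Pairs were joined into a block where both fragments lay within 1 Mb of those of another pair, and 77 blocks of at least 3 pairs held 993 pairs (65.0%). The 4 largest held 447 (29.3%). A further 453 pairs stood alone. In each block the side with the smaller width is called narrow and the other wide. The median width was 5.10 kb on the narrow side (0.361 to 78.0 kb) and 292.5 kb on the wide side (4.94 to 2911 kb). In 55 of 77 blocks the narrow side was under 20 kb and the wide side over 100 kb. In 59 of the 77 the narrow side held no bait, and in 48 of these 59 the wide side had more fragments than the narrow side, which means that a small region was paired with a larger number of promoter fragments of another chromosome. With a shorter and a longer linkage distance there were 76 and 77 blocks.

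The Esp8 block joined 5.59 kb of chromosome 17 (chr17:40515289-40520881) with 2911 kb of chromosome 7 (chr7:39447705-42358417) through 207 pairs. The Kcnab3 block joined chr11:69329193-69346181 with chr8:91991570-93929874 through 117 pairs, around the carboxylesterase gene Ces1h. In the third block 13.7 kb within Matr3 (chr18:35579731-35593391) were paired 65 times with 32 fragments of chr4:154870836-156241375, among them the baits of Acap3 (an Arf GTPase-activating protein), Cptp (a ceramide-1-phosphate transfer protein) and Ints11 (the Integrator endonuclease). In the fourth, chr4:44976324-44995427 at Grhpr was paired 58 times with chr10:89186863-89916532, which includes the bile acid receptor gene Nr1h4.

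Within each of the 4 largest blocks the 0h score peaked at 1 fragment of the wide side and fell with distance from it. In the Esp8 block the peak was chr7:40030418-40031570, with a score of 715.43. Pairs within 50 kb of it had a median score of 99.8 (27 pairs in the 0h list), those 50 to 200 kb away 17.9 (51 pairs), those 200 to 500 kb away 11.4 (34 pairs) and those beyond 500 kb 11.2 (7 pairs). In the Kcnab3 block the peak was chr8:93383064-93384393 with a score of 1161.07, the highest of any trans pair, and the medians were 118.6, 17.0, 11.5 and 8.25. In the Matr3 block the medians were 56.4, 25.7, 14.7 and 7.92, and in the Grhpr block they were 30.1, 8.93 and 8.30, with no pair beyond 500 kb. The fifth block, between chromosomes 1 and 2, did not have this course, with medians of 8.62, 8.93 and 6.36.

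**Figure D1:**
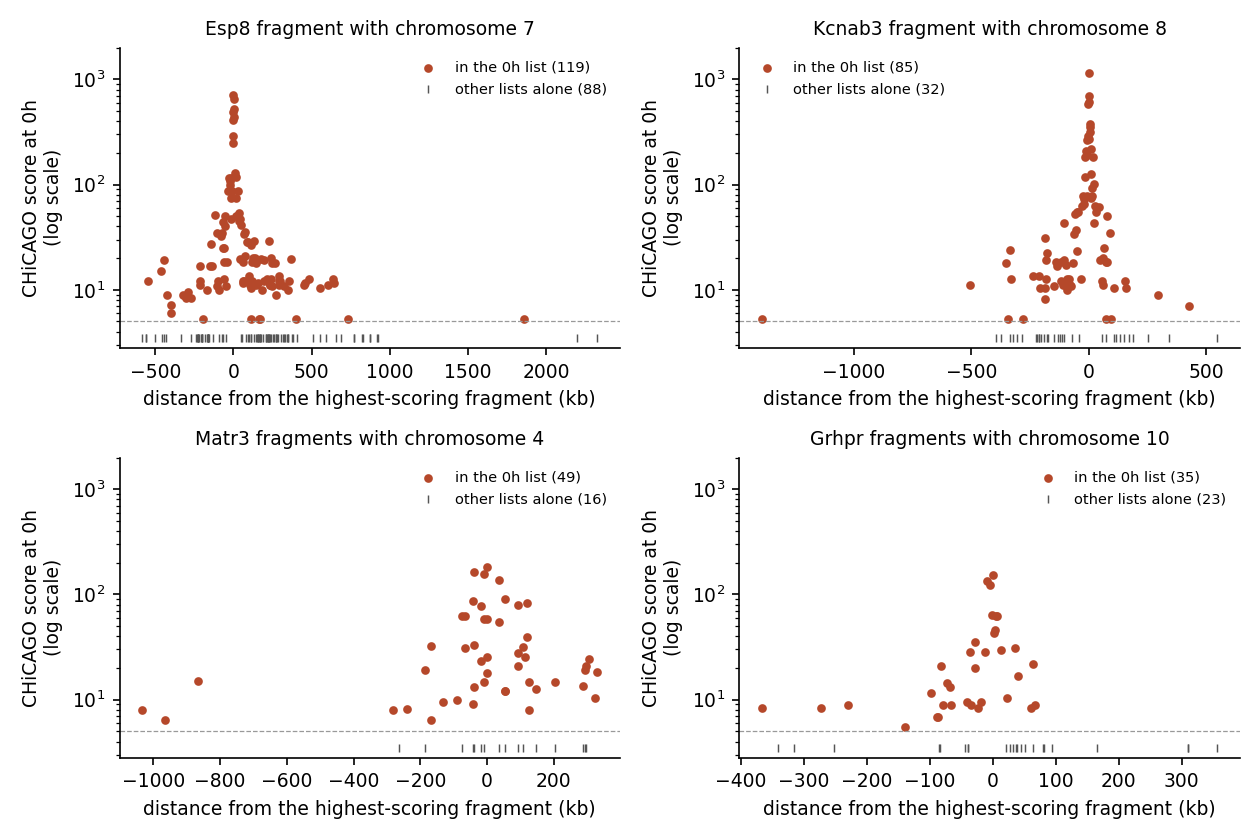
CHiCAGO score at 0h (log scale) of every trans pair of the 4 largest blocks against the distance in kb of its wide-side fragment from the fragment with the highest 0h score. Points are pairs in the 0h list, ticks under the dashed line (score 5) are pairs found in other lists alone. Scores peak at 715.43 in the Esp8 block and 1161.07 in the Kcnab3 block and are mostly under 30 beyond 200 kb.

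The peak was chosen by its 0h score. The later lists served only to break ties in that score and, together with the 0h list, to form the blocks. Among the 20 blocks of 10 or more pairs, the highest value of the 1h list lay within 50 kb of the 0h peak in 17 of 20, that of the 12h list in 17 of 20 and that of the 48h list in 17 of 19. Among these blocks the wide side was as short as 122 kb and held as few as 4 fragments, so closeness is partly set by size. The 1h, 12h and 48h lists hold whole numbers whose unit is not named, with 2 as the lowest among trans pairs, and they were compared only within a list. In the Esp8 block their medians within 50 kb were 11.5 at 1h, 13.0 at 12h and 12.0 at 48h, against 4.0, 3.0 and 3.0 from 50 to 200 kb. Pairs close to the peak were also those found at every time point, 26 of 29 within 50 kb in the Esp8 block and 30 of 34 in the Kcnab3 block, against 22 of 79 and 7 of 57 from 50 to 200 kb and none farther out.

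Outside the 4 largest blocks, the strongest pair joined the chromosome 16 bait chr16:71018106-71021264, which holds no annotated start site, with chr2:9260657-9266284. Its score was 1026.06 at 0h and its list values were 61, 58 and 163 at 1h, 12h and 48h. The bait of the small nuclear RNA gene Gm26327 (chr7:39629629-39632540) was paired with chr3:119818849-119823452 at 576.92 and with list values of 23, 42 and 83. The bait of Asz1, a germ cell gene of the piRNA pathway (chr6:18107245-18111240), was paired with 2 neighbouring fragments of Srfbp1 on chromosome 18 at 310.36 and 250.98. Mocs2, for molybdenum cofactor synthesis (chr13:114812185-114818990), was paired with chr2:109761560-109764407 at 211.57. Each of these was listed at all 4 time points.

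Block 5 was the largest that lost every pair. It joined the Ugt1a to Trpm8 region of chromosome 1 (chr1:88211442-88289460) with chr2:3067673-3423024 around Fam171a1, with 20 pairs at 0h, 13 at 1h, 6 at 12h and none of 34 at 48h. Its busiest bait on chromosome 1 held the starts of Hjurp, the chaperone that deposits the centromeric histone CENP-A, and of the ion channel gene Trpm8. The 0h libraries had Hjurp at 10.28, 9.83 and 7.6 TPM and the 1h libraries at 24.67, 27.57 and 22.47 TPM. It was then at 5.86, 5.71 and 8.91 TPM at 12h, and the 48h libraries had 0.35, 0.63 and 0.23 TPM. The 48h libraries lay below all others (log2 fold change -4.28 ± 0.28 SE, limma adjusted p = 3.29e-07). Whether the RNA and the contacts are linked was not tested. At the other extreme, chr4:31898832-31912611 had 6 trans partners, all in the 1h list alone. Of the 77 blocks 63 had at least 1 pair in every list.

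Trans pairs were found at all time points about as often as pairs on the same chromosome and more often than distant ones. Of 1528 trans pairs 305 (19.96%, Wilson interval 18.0 to 22.0) were listed at all 4 time points, against 17.6% of 272116 pairs on the same chromosome and 4.77% (4.24 to 5.36) of the 5559 pairs on the same chromosome more than 1 Mb apart. Without the 4 largest blocks the trans share was 17.1% (185 of 1081), and among pairs of the 0h list it was 34.7% for trans pairs and 34.8% for pairs on the same chromosome. At the other end, 803 trans pairs (52.6%) were listed at 1 time point, against 47.4% and 71.7%. The 1h, 12h and 48h lists held 55.7%, 49.9% and 50.0% of the 0h trans pairs, against 57.6%, 53.2% and 55.9% of the 0h pairs on the same chromosome. When both fragments of a trans pair were allowed to lie up to 10 kb away these shares were 71.5%, 67.3% and 65.7%. In blocks 262 of 993 pairs (26.4%) were listed at all 4 time points, and outside them 43 of 535 (8.04%). These shares are a description, since pairs of a block share a fragment.

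**Figure D2:**
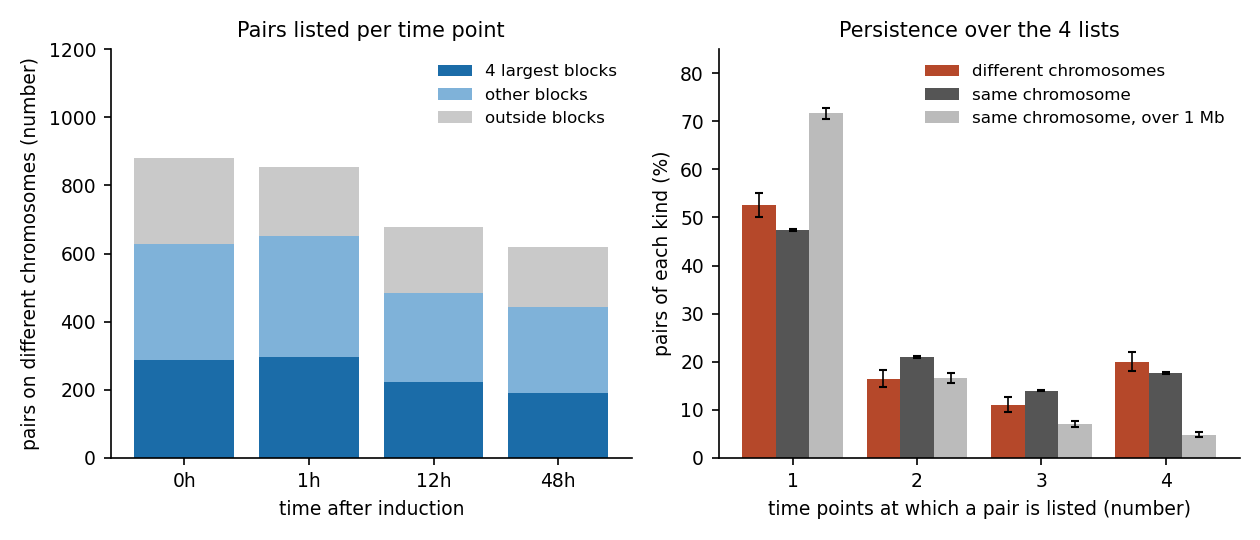
The left plot gives the number of trans pairs in each list, split into the 4 largest blocks, other blocks and pairs outside blocks. The right plot gives the percentage of pairs listed at 1, 2, 3 or 4 time points for each kind of pair (bars) with 95% Wilson intervals (lines). The totals are 880, 855, 679 and 618, and 19.96% of trans pairs are in all 4 lists.

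Trans pairs had high scores at 0h. The median was 14.7 (95% interval of the median 13.7 to 16.6, quartiles 9.0 and 32.4, 880 pairs), against 6.80 for pairs on the same chromosome (6.79 to 6.82, 137889 pairs) and 7.02 for those more than 1 Mb apart (2821 pairs). A score of 100 or more was given to 66 trans pairs and to none of the pairs on the same chromosome, whose highest was 93.01. Scores rose with the number of lists that held a pair, from a median of 8.93 for trans pairs at 1 time point to 12.4 at 2, 16.7 at 3 and 44.6 at 4, and from 5.79 to 9.09 for pairs on the same chromosome. The opposite order was seen for the whole numbers of the later lists, where trans pairs had medians of 4, 3 and 4 at 1h, 12h and 48h, and pairs on the same chromosome 17, 14 and 15. These numbers are not on the scale of the 0h score. Outside blocks the median 0h score of trans pairs was 11.2.

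**Figure D3:**
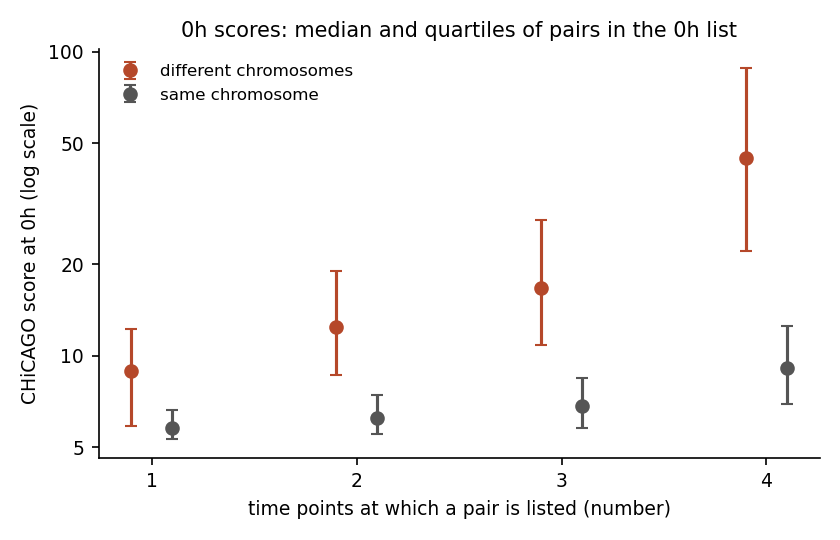
CHiCAGO score at 0h (log scale) against the number of time points at which a pair is listed, for pairs on different chromosomes and on the same chromosome. Points are medians and lines run from the lower to the upper quartile. The median of trans pairs goes from 8.93 at 1 time point to 44.6 at 4, above that of pairs on the same chromosome throughout.

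The fragment of Hras, the gene of the small GTPase H-Ras, had a pattern of its own among recurrent fragments (it is named by the rule for recurrent fragments, whereas its partners, other than Gfi1b and Ier5, were chosen after their values were seen). The fragment is no bait. It was paired with 16 baits on 5 chromosomes, in 14 pairs at 0h, none at 1h, none at 12h and 12 at 48h. Of the 60 fragments with 5 or more trans partners it alone was listed at 0h and 48h and at neither time between, and 54 were listed at all 4. Its 4 pairs on chromosome 7 behaved alike, with 1 at 0h, 4 at 48h and none between. The cut sites of the Hras fragment and of the Gfi1b and Myc baits are printed because these genes are well-known regulators, with HindIII in capitals. The printed Hras and Myc windows overlap no annotated gene.
Hras, chr7:141188394-141188473: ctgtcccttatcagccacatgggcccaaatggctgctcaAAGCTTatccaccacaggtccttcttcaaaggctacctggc
Gfi1b bait, chr2:28611535-28611614: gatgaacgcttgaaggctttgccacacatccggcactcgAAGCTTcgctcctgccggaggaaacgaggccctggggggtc
Myc bait, chr15:61984133-61984212: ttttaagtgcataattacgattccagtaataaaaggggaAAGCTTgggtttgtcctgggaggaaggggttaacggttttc

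The 16 baits lay in 6 regions, most with 1 leading bait. Gfi1b, a transcriptional repressor of blood cell development, had the highest 0h score at 110.02 and a 48h value of 7, and its neighbours Gm22824 (21.6) and Tsc1, a brake on mTOR (37.1), followed. Ier5, an immediate early gene on chromosome 1, had 96.99 and a 48h value of 15, the highest among the trans partners of Hras. Lfng, a glycosyltransferase that modifies Notch, had 95.12 and 7. Myc had 51.81 and 4, and Crb2, a polarity gene at a separate site on chromosome 2, had 56.0 and 3. Spocd1 on chromosome 4 was listed at 0h alone (10.4), and its neighbour Ptp4a2 at 48h alone.

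**Figure D4:**
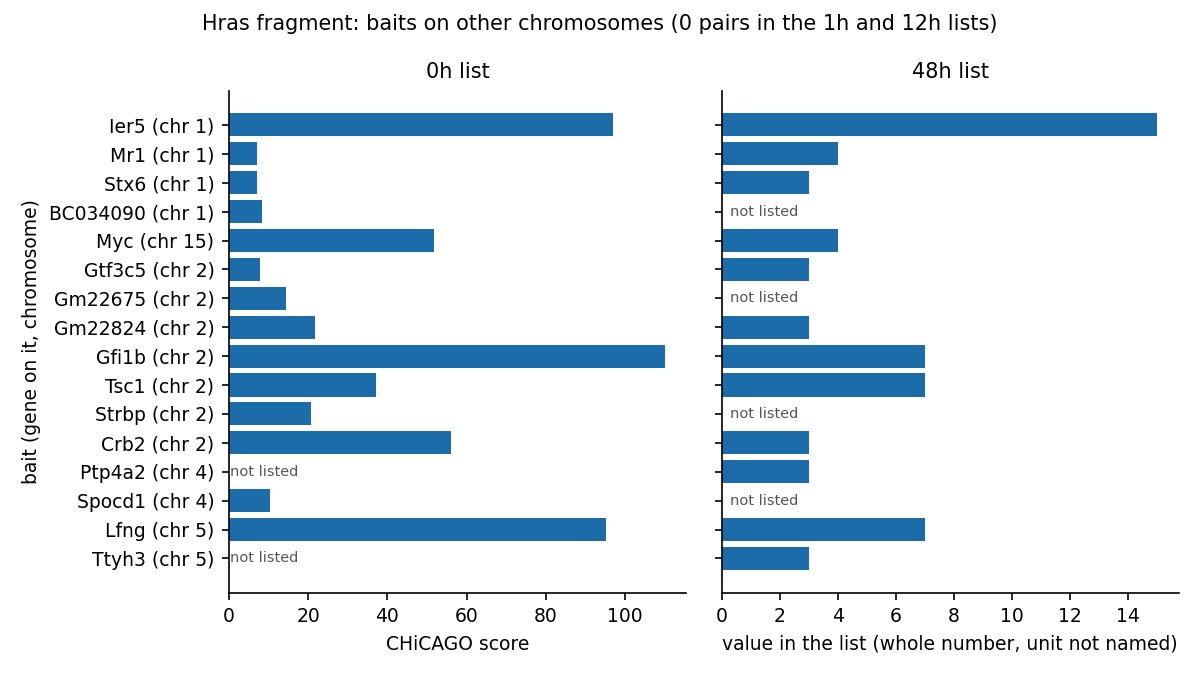
Each bar is a bait on another chromosome paired with the Hras fragment, with its CHiCAGO score in the 0h list (left) and its whole-number value in the 48h list (right). The units of the 2 plots differ. Gfi1b leads at 0h with 110.02 and Ier5 at 48h with 15, and no pair is in the 1h or 12h list.

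RNA of Hras itself was among the most abundant in these cells, ranked 15, 15, 24 and 17 of 55450 genes by mean TPM at the 4 time points. Its 0h libraries were at 930.98, 887.74 and 852.76 TPM, its 12h libraries at 414.65, 448.29 and 559.39 TPM and its 48h libraries at 571.25, 673.11 and 865.67 TPM, so that 48h overlapped 0h and 12h did not. The change at 12h was -0.92 ± 0.20 SE on the log2 scale (limma adjusted p = 0.00436), short of the log2 fold change of 1 used for calls. Reads from copies of the gene other than the one at its own locus were not separated in these values.

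Among the leading partners, Gfi1b and Ier5 had their lowest mean RNA at 1h and 12h, when the pairs were not listed. Gfi1b was at 3.66, 3.82 and 4.81 TPM at 0h, fell to 0.42, 0.42 and 0.43 TPM at 1h (log2 fold change -2.99 ± 0.29 SE, limma adjusted p = 6.49e-05), was at 0.78, 1.69 and 1.52 TPM at 12h and at 2.07, 3.42 and 3.31 TPM at 48h, where it no longer passed the test (adjusted p = 0.206). Ier5 went from 6.07, 6.98 and 6.84 TPM at 0h to 2.39, 2.26 and 3.1 TPM at 1h (-1.34 ± 0.35 SE, limma adjusted p = 0.0191), a call lost without the filter on low values and when 0h replicate 2 or 3 or 1h replicate 1 or 2 was left out. The log2 fold changes of Ier5 were between -1.31 and -1.25 without these replicates and unchanged without the filter. Its 48h libraries, at 2.08, 3.47 and 6.86 TPM, overlapped those at 0h, and also those at 1h and 12h (1.66, 2.01 and 2.79 TPM). The 48h libraries were not tested against 1h or 12h. Lfng and Myc did not follow this course. Lfng had means of 31.4, 17.5, 12.2 and 10.6 TPM at the 4 time points and Myc of 29.99, 22.2, 12.3 and 8.72 TPM, and at 48h both were lower than at 0h (log2 fold changes -1.55 ± 0.18 and -1.78 ± 0.15 SE, limma adjusted p = 2.55e-05 and 2.79e-06). Tsc1 went the other way at 1h, with means of 1.63, 2.93, 1.99 and 1.14 TPM (1h log2 fold change 0.83, limma adjusted p = 0.0257, short of a call). Strbp was also lowest at 48h, with means of 11.2, 10.5, 5.97 and 3.39 TPM. Crb2 was lowest at 1h and 12h, with means of 0.367, 0.133, 0.147 and 0.587 TPM, but none of its changes passed the test. A link between these levels and the contacts was not tested.

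**Figure D5:**
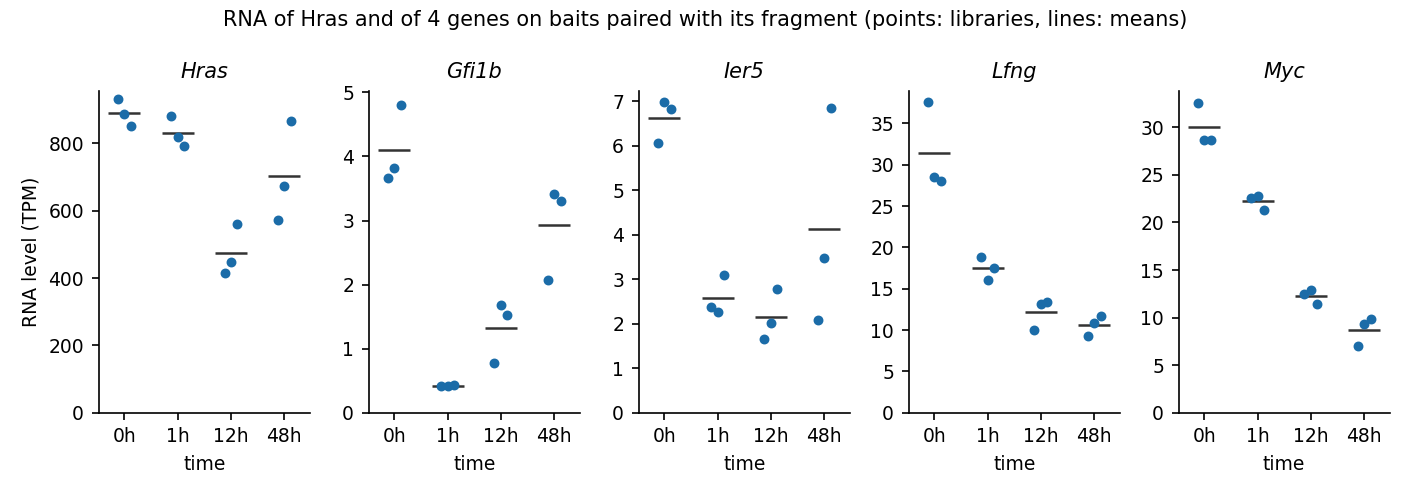
RNA level (TPM) of Hras and of 4 genes on baits paired with its fragment, by time point. Points are libraries (n = 3 per time point) and lines are means. Gfi1b is at 0.42 to 0.43 TPM at 1h and at 2.07 to 3.42 TPM at 48h, whereas Lfng and Myc are lowest at 48h.

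Fragments on the narrow side of blocks were rich in exons. Among those that were no bait 75 of 132 (56.8%) overlapped an annotated exon, against 28.5% of 435 such fragments on the wide side and 38.8% of the 107796 fragments that were no bait and had pairs on their own chromosome alone. At least 50% of the fragment was exon in 24.2%, 3.68% and 6.14%, and the 3′ end of a protein-coding gene lay on 12.1%, 3.68% and 5.30%. Of the 77 narrow sides 49 held exon bases and 20 held such a 3′ end. Examples are the Matr3 fragment above, chr11:5530466-5531110, which lies wholly in an exon of Ccdc117 and was paired with 12 fragments of chromosome 15 around Fam118a, and chr8:71933176-71934931, which is 82.8% exon of the zinc finger gene Zfp617. Others held no exon at all, such as chr11:59999140-60014416 within Pemt (29 pairs with chromosome 4 around Rimkla). Fragments are not independent replicates, and no test was made.

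Trans baits differed less from other baits. Their median GC content was 46.0%, against 47.2%, and their repeat-masked share 21.5%, against 21.6%. They lay within 5 Mb of a chromosome end in 11.01% of cases, against 7.30% of other baits. Of the 88 trans baits so placed, 32 belong to the Matr3 block at the end of chromosome 4, so the difference rests largely on a single region pair. Trans fragments that were no bait had a median repeat-masked share of 27.4%, against 23.4%, and 6.84% of them were masked over at least 80% of their length, against 0.468%. This share was 11.5% of the 486 such fragments outside blocks, 1.84% on the wide side and 6.06% on the narrow side of blocks.

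Sequence shared between the 2 fragments of a pair was uncommon. With blastn, 69 trans pairs (4.52%, Wilson interval 3.58 to 5.68) shared a stretch of at least 100 bases at 90% identity or more, against 3.33% (2.89 to 3.83) of pairs on the same chromosome more than 1 Mb apart. At 50 bases and 95% identity the shares were 2.16% and 2.19%, so the order depended on the setting. With repeats masked they were 0.458% (7 pairs) and 0.234%. When each narrow side was compared with the whole wide region and 100 kb around it, 5 of 77 blocks had such a stretch. In the Grhpr block it was 2257 bases at 97.2% identity, between chr4:44991752-44994005, in Zbtb5, and chr10:89553466-89555714, a few kb from the fragment with the highest score. No such stretch was found in the Esp8, Kcnab3 and Matr3 blocks. A chromosome 8 fragment that is 97.9% exon of Matr3-ps2, by its name a Matr3 pseudogene, was paired 6 times with chr4:155867428-156027190. That region lies within the chromosome 4 side of the Matr3 block, and a relation between the 2 blocks was not tested.

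The clearest shared sequence joined the bait of Gm18180 and Spata3 (chr1:86008778-86020207) with chr8:71933176-71934931 in Zfp617, a pair with a score of 275.51 and in all 4 lists. They shared 1449 bases at 97.9% identity in opposite orientation. Gm18180 is annotated as a processed pseudogene, a DNA copy of a spliced transcript. A stretch of 120 bases of this match, in the coding sequence of Zfp617 and free of mismatches, is given for each chromosome.
Gm18180, chr1:86014531-86014650, plus strand: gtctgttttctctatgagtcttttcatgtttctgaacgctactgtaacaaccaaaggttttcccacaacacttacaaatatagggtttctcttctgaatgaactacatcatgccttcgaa
Zfp617, chr8:71933380-71933499, minus strand: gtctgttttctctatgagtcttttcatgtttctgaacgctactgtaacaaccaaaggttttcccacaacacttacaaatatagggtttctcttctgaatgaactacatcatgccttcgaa
Another pair in all 4 lists joined the bait of Cyp2c70 (a bile acid hydroxylase) and AC170187.1 with a fragment of the nuclear receptor gene Nr1d2 at a score of 119.48, sharing 660 bases at 95.8% identity. In the 120 bases shown the capitals mark 5 mismatches.
Nr1d2, chr14:18214853-18214972, plus strand: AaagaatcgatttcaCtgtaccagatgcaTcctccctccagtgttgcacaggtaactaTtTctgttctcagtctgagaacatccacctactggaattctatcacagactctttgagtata
AC170187.1, chr19:40191721-40191840, minus strand: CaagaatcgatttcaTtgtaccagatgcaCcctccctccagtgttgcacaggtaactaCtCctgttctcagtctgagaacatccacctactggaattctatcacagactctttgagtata

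Gene families were represented on trans baits in different measure, against 4.40% of all baits. Olfactory receptor genes had 44 of 674 baits with a trans pair (6.53%), zinc finger genes 15 of 290 (5.17%), microRNA genes 30 of 472 (6.36%) and ribosomal protein genes 12 of 96 (12.5%). The share of zinc finger genes was near that of all baits, and no share was tested. Interferon-inducible genes of the Gbp and Ifi families had 6 of 17 (35.3%). Of these, Ifi202b and Ifi207 share a block with olfactory receptor genes on chromosome 1 and so do not count as separate contacts. Whether Gbp2b, Gbp5, Gbp7 and Ifi205 count as separate contacts was not examined, nor was this examined for the other families. Olfr618 and Olfr620, for example, share a block on chromosome 7. Histone genes had 1 of 33, the bait of Hist1h1t (a testis histone H1), with 11 trans partners on chromosome 4. The 39 baits of the Hox clusters and the 51 of keratins had none.

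Few genes of the 2 cell identities were on trans baits, in numbers too small to set apart from the 4.40% of all baits. Of 21 Pre-B cell genes, all on baits, Vpreb1 and Igll1 were on a trans bait, and of 21 macrophage genes, 19 on baits, Fcer1g was. Vpreb1 and Igll1, the components of the surrogate light chain of the pre-B cell receptor, share a bait whose single trans pair, with chr2:114409729-114415713, was in the 48h list alone at the lowest value, 2. Igll1 was at 61.23, 50.87 and 42.64 TPM at 0h and at 1.17, 0.96 and 1.16 TPM at 48h. Fcer1g, the Fc receptor gamma chain, had 1 trans pair, with the Upk1b fragment of chromosome 16, at 48h alone with a value of 3. It was listed at 0 TPM in all 0h libraries and at 11.48, 12.26 and 13.73 TPM at 48h (limma adjusted p = 1.74e-06).

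Calls among genes on trans baits lay near the background of all genes tested. Starts of 1028 genes lay on trans baits, and at 0h 46.8% of them were at 0 TPM and 10.2% above 5 TPM, against 41.5% and 11.6% of 22165 genes on other baits. With limma on log2(TPM + 0.1), 463 of them were tested. Calls needed a log2 fold change beyond 1 in either direction and an adjusted p under 0.05, which 17.8% of all 16412 genes tested reached at 1h, 23.4% at 12h and 36.6% at 48h. At 1h 66 were higher (14.3%, against 16.7% of all genes tested) and 9 lower (1.94%, against 1.08%). At 12h 76 were higher (16.4%, against 17.7%) and 31 lower (6.70%, against 5.76%). At 48h 69 were higher (14.9%, against 13.5%) and 121 lower (26.1%, against 23.1%). The median log2 fold changes of these genes were 0.50, 0.24 and -0.31, beside 0.59, 0.34 and -0.18 over all genes tested. Median-of-ratios scaling moved the last to 0.01, 0.06 and 0.09, and the share of higher calls among the genes on trans baits from 88.0%, 71.0% and 36.3% at 1h, 12h and 48h to 48.6%, 50.0% and 49.5%. AY036118 and CT010467.1, at a ribosomal RNA locus, took between 72.7% and 80.4% of TPM at the 4 time points, and the part of this in the shift was not tested.

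The genes on trans baits with the largest changes had few trans pairs. At 1h Rasl10a, a Ras-like gene, rose from 0.15, 0 and 0.1 TPM to 4.03, 2.36 and 2.64 TPM (log2 fold change 4.15 ± 0.56 SE), and Cpt1a, the gate of fatty acid import into mitochondria, from 2.05, 0.99 and 1.67 TPM to 12.73, 12.56 and 13.64 TPM (3.02 ± 0.25 SE). The erythroid and megakaryocyte factor Nfe2 rose by 2.63 ± 0.26 SE. The single trans pairs of Rasl10a and Nfe2 were in the 0h list alone, with scores of 36.9 and 13.7. At 1h Gfi1b, Gimap6 and Ier5 had the largest decreases, and Gimap6, a GTPase of lymphocytes, fell by 1.79 on the log2 scale. The limma adjusted p was between 1.95e-05 and 0.0191 for these 6 genes.

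At 12h Sat1, which acetylates polyamines, rose from 1.44, 1.47 and 2.05 TPM to 24.42, 27.44 and 43.25 TPM (4.15 ± 0.26 SE), and Naaa, a lysosomal amidase, from 0.93, 0.2 and 0.06 TPM to 6.52, 7.65 and 8.02 TPM (4.35 ± 0.53 SE). The interferon-inducible Ifi202b was listed at 0 in all 0h libraries, at 3.67, 3.93 and 2.54 TPM at 12h and at 104.69, 125.98 and 75.74 TPM at 48h. Its bait was paired with the non-coding fragment chr12:92886300-92887579 in all 4 lists, at 23.67 at 0h and at 6, 8 and 4 later. That fragment had 11 partners on chromosome 1, with the highest 0h score, 30.75, at the bait of Olfr432. A link between the contact and the RNA of Ifi202b was not tested. Ifi207, in the same block, rose from 0, 0.04 and 0 TPM to 39.44, 43.51 and 30.15 TPM at 48h (8.38 ± 0.27 SE). Vpreb1 fell to log2 fold changes of -3.00 at 12h and -5.31 at 48h, and Igll1 to -5.42 at 48h. Pclaf, a PCNA-associated factor, had -2.48 at 12h and -6.23 at 48h, from 16.97, 14.33 and 13.53 TPM at 0h to 0, 0.22 and 0.15 TPM at 48h. The limma adjusted p was at most 0.000375 for these changes.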

How the data were processed

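For PCHi-C the authors mapped reads to mm10 with HiCUP, merged 2 replicates per time point and deposited CHiCAGO lists. In the 0h list the deposited value is the score of a pair, and the deposited 1h, 12h and 48h lists hold whole numbers of unnamed unit, treated as a score without scale. Rows of both directions were merged. The authors deposited TPM for RNA-seq of 12 libraries, which hold no depth, and genes with a mean of at least 0.1 TPM entered limma 3.58.1 under R 4.3.3 (1 model of 12 libraries, trend, Benjamini-Hochberg). P-values measure the spread between these libraries. Start sites and exons are from GENCODE M21 on GRCm38.p6. Stretches were searched with blastn 2.17.0. Other steps used Python 3.11.15. The steps were tested on simulated data. Hi-C was not used.

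Named genes have a start on the 10 fragments with most trans partners, on the 10 highest-scoring pairs in all lists or on the busiest fragments of the 3 largest blocks, or are the 3 largest increases and decreases per time point among called genes on trans baits with at least 1 TPM and no overlap between libraries. Other genes and regions named were chosen after their values were seen. The members and lists were chosen with earlier results of these data known.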

Additional observations from a re-analysis of the deposited data

How the results depend on the processing

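Without the 4 largest blocks the 1h list held 560 trans pairs. The share of 0h trans pairs found at all 4 time points, 34.7%, was 54.3% within 10 kb, 46.4% for scores of at least 10 and 31.2% without the 4 largest blocks. The median 0h score was 11.24 outside blocks, and that of pairs on the same chromosome more than 1 Mb apart was 7.02. From pairs at 2 or more time points 27 fragments had 5 or more partners. Shared stretches joined 33 pairs at 50 bases and 95% identity and 7 with repeats masked.

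For genes on trans baits, higher and lower calls at 1h were 27 and 3 with a pseudocount of 1, 17 and 18 with median-of-ratios scaling, 13 and 1 beyond a log2 fold change of 2, and 37 higher without the filter. At 12h they were 40 and 19 with a pseudocount of 1 and 22 and 9 beyond 2, with 20 lower without the filter and 52 lower with scaling. At 48h they were 36 and 75 with a pseudocount of 1 and 30 and 49 beyond 2. For baits of pairs at 2 or more time points, 29 genes were called higher at 1h, 33 at 12h and 29 at 48h, and 18 were called lower at 12h and 64 at 48h. Leaving out 1 library gave 42 to 69 higher and 5 to 8 lower calls at 1h, the fewest without 0h replicate 3. Beyond this alternative's construction the cause was not tested. No call of a named gene reversed, and 14 were lost with a pseudocount of 1 and 6 with scaling. The alternatives without the 4 largest blocks, outside blocks and with repeats masked were chosen after seeing the data.

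Replicate numbers were not taken as pairs, since the labels tie them to no shared batch and 11 of 18 pairs of the same number, not all, had a correlation over 0.1. That 7 of 12 libraries correlated best with their own number is a hint of partial pairing. With the number as a replicate block, 61, 73 and 68 genes were called higher and 9, 30 and 122 lower at the 3 later time points. Contacts have 1 merged list per time point, so their spread between replicates is unknown, and TPM gives no depth.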
